A study of Mus musculus with 8 samples.

Results

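Probes for nuclear and small structural RNAs were examined on 8 one-color arrays, which had measured Ago–RNA and total RNA at 4 stages of neural differentiation of mouse ES cells. The set was chosen by name and held 10 RNAs. 9 of them had a probe of that name, among the 36163 gene names on the array: the long nuclear RNAs Malat1 and Neat1, the RNase MRP RNA Rmrp, the telomerase RNA Terc, the RNase P RNA Rpph1, the spliceosomal RNAs Rnu12 and Rnu2, and the small nucleolar RNAs Rnu3b1 and Snora74a. The long nuclear RNA Miat had no probe of that name and was not analyzed here. Each of the 9 had 1 probe, printed in 1 spot, and all 9 were well above background on all 8 arrays by the scanner's own criterion.

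The cells were of the E14Tg2A line, an ES cell line of strain 129/Ola, and carried no further modification in the labels. ES cells were kept in serum and LIF and collected at 0 days in vitro (DIV). Epiblast-like aggregates (ELA) were floating aggregates after 2 days in a serum-free, chemically defined medium with N2/B27. NPC had then grown attached to poly-ornithine and laminin until 6 DIV. NPC/Neu had been replated and kept without B27 until 10 DIV. At each stage, Ago proteins were pulled down from the cytosol with the anti-pan Ago antibody 2A8, and their RNA and total RNA were hybridized to 1 array each. Per the labels, each RNA was a pool of 3 independent experiments, so no condition had a replicate and no p-value is given. Control immunoprecipitations were not used here, so a low value cannot be split between an RNA that was outside the cytosol and an RNA that was in the cytosol without Ago.

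Most RNAs of this kind act in the nucleus, where they build nuclear bodies, cut and modify other RNAs, or excise introns. Malat1 lies in nuclear speckles, and Neat1 is the scaffold of paraspeckles. Ago proteins carry miRNAs and act on mRNAs mainly in the cytosol, which makes nuclear RNAs a measure of what else an Ago fraction contains. The labeling reaction of these arrays starts from an oligo-dT primer, and most small structural RNAs lack a poly(A) tail. How that changed their signal was not tested.

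The probes of 8 of the 9 RNAs are printed here because they define what was measured. Each line gives the strand that matches the detected RNA, on mm9. Capitals mark the Sm site letters ATTTTTG in Rnu12 and Rnu2, where the ring of Sm proteins sits, and the telomere template letters CTAACCC in Terc. The Sm letters occurred, on either strand, in 1.7% of the 55681 probes of the array and the template letters in 0.33%.
Malat1, chr19:5795713-5795772, minus: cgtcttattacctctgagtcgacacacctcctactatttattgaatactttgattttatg
Neat1, chr19:5842564-5842623, minus: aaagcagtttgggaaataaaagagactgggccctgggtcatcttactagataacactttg
Rmrp, chr4:43505847-43505906, minus: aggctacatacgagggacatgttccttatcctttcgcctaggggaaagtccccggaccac
Terc, chr3:96218697-96218756, minus: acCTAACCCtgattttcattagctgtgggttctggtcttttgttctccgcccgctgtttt
Rpph1, chr14:51427136-51427195, plus: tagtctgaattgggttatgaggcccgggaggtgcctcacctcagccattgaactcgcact
Rnu12, chr15:82980096-82980155, plus: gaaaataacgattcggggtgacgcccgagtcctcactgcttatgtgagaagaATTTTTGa
Rnu2, chr11:101488770-101488829, plus: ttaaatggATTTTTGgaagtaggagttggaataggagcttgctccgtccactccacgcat
Rnu3b1, chr11:87285025-87285084, plus: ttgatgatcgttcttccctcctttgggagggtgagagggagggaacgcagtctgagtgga

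All 8 printed probes matched the genome exactly at these positions. The Rnu2 probe had 5 exact matches in the genome and the Rnu3b1 probe had 4, so each reads several copies of U2 or U3 together. The other probes had 1 match each. The Rpph1 probe lay on the strand opposite to the RNase P RNA that GENCODE annotates there, whose own letters over the same stretch read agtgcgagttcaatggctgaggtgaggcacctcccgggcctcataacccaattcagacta. Its signal was therefore that of the opposite strand and is given under the array's name only. The Rmrp probe overlapped Ccdc107, which runs on the other strand, and Snora74a lies within its host gene Snhg4 on the same strand. The probes of Rnu2 and Rnu3b1 lay within Rdm1 and Tex14, again on the same strand. The labeled precursor or host RNA and the small RNA itself could not be told apart with these probes.

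Ago enrichment (E) is the log2 of Ago–RNA over total RNA of the same stage, after background correction and quantile normalization, so that -1 is a signal 2-fold lower in Ago–RNA. As a measure of technical error, 244 probes printed in about 10 spots each, with a mean log2 total RNA signal of 8 or more, had a spot-to-spot SD of E of 0.09, 0.10, 0.07 and 0.09 in the order of the stages. This error covers spots on the same array only and leaves out the spread between cultures and immunoprecipitations.

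In ES cells, all 9 RNAs had less normalized signal in Ago–RNA than in total RNA, and 8 of 9 lay at E of -1 or lower. Over all 33209 probes tested in ES, 13.0% did. The count of 8 includes Rpph1, whose probe reads the opposite strand. Without Rpph1, 7, 4, 6 and 6 RNAs lay at -1 or lower from ES to NPC/Neu. The median E of the 9 RNAs was -2.93, and that of all tested probes was -0.02. By its named probe, Malat1 had the lowest E of the set at -4.39, a signal 20.95-fold lower in Ago–RNA, and 0.0151% of the tested probes had a lower value. Snora74a followed at -3.80, Rnu3b1 at -3.34, Rmrp at -3.28, Rnu2 at -2.93, Rnu12 at -2.82, Rpph1 at -2.40 and Neat1 at -1.63. Rnu3b1 and Rmrp, and likewise Rnu2 and Rnu12, differed by less than 2 SD of the difference between spots (0.25), and the other neighbors in this order differed by more. Terc was the exception, with an E of -0.27.

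In ELA cells, E was higher for all 9 RNAs than in ES cells. The rise was at least 1 for 7 of 9, where 8.78% of all probes tested at both stages rose by as much. Without Rpph1, whose probe reads the opposite strand, it was at least 1 for 6 RNAs. The largest rises were 2.50 for Rnu2 and 2.50 for Snora74a, and the smallest were 0.82 for Terc and 0.86 for Neat1. The median E was -0.96 in ELA, and 4 of 9 RNAs were at -1 or lower (Malat1, Snora74a, Rmrp and Rnu3b1), against 5.01% of all tested probes. With quantile normalization within each RNA type, only Malat1 (-2.02) stayed at -1 or lower, against 4.53% of all tested probes. Snora74a was then at -0.85, Rmrp at -0.80 and Rnu3b1 at -0.74. Some other settings, given in the last section, put 5 of 9 at -1 or lower. By its named probe, Malat1 stood apart at -2.47. The 7 RNAs from Snora74a to Rnu2, between -1.30 and -0.43, each differed from the next by less than 2 SD of the difference (0.27).

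At later stages E fell again for most of the set. It was lower in NPC than in ELA for 8 of 9 RNAs, Rpph1 among them, with Neat1 as the exception and Snora74a within the spot-to-spot error. It fell by at least 1 for Rnu3b1 alone, as it did for 3.81% of all probes tested. It fell again from NPC to NPC/Neu for 7 of 9, by at least 1 for Malat1, Terc and Rnu2 (4.87% of all probes tested), while Rpph1 and Snora74a rose. The median E was -1.39 in NPC, with 7 of 9 at -1 or lower against 7.64% of tested probes. It was -1.98 in NPC/Neu, with 7 of 9 at -1 or lower against 14.3%. The spread of E over all tested probes was also narrowest in ELA, with an SD of 0.90, 0.61, 0.71 and 1.00 from ES to NPC/Neu, but it was widest in NPC/Neu, whereas the set lay lowest in ES. The part of this overall spread in the values of the set was not tested.

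**Figure D1:**
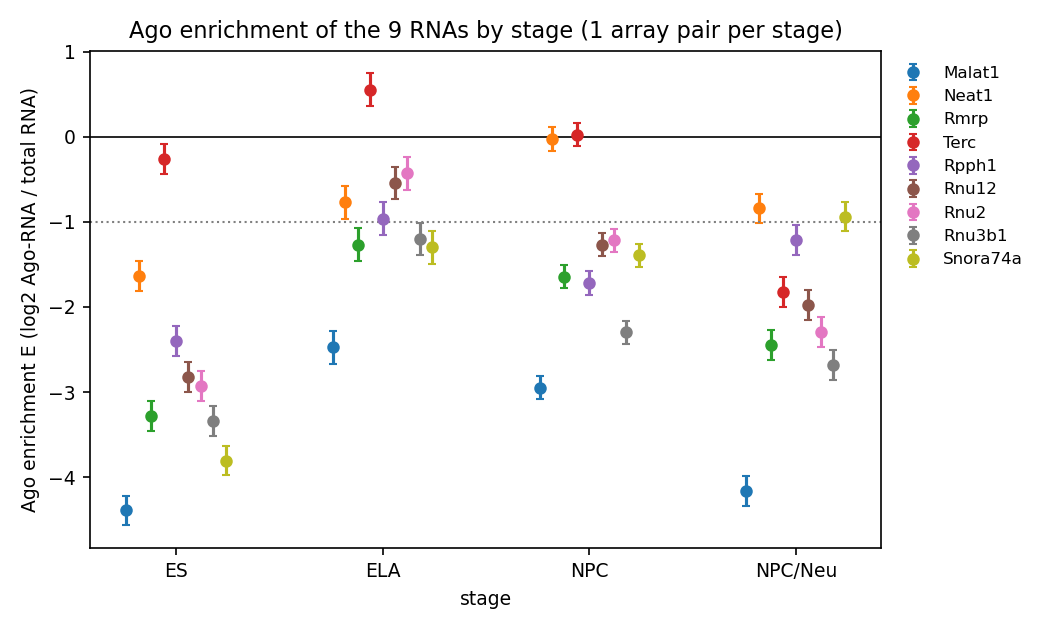
Ago enrichment (log2 of Ago–RNA over total RNA, vertical axis) of the 9 RNAs at each stage (horizontal axis), with 1 pair of arrays per stage. Bars are 2 spot-to-spot SD on each side, the solid line is 0 and the dotted line is -1. Malat1, by its named probe, is lowest at every stage, Terc is above 0 in ELA, and the set as a whole lies lowest in ES.

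The change from ES to ELA came from the Ago–RNA arrays. Normalized Ago–RNA signals rose by 3.08 (log2) for Rnu2, 2.61 for Rmrp, 2.58 for Rnu3b1, 2.42 for Rnu12, 2.08 for Snora74a, 1.81 for Malat1, 1.26 for Rpph1 and 0.98 for Terc, and that of Neat1 fell by 0.35. Total RNA signals of the same RNAs moved by no more than 0.61 in either direction, apart from Neat1. The array with ES Ago–RNA was brighter than the others before normalization, with an upper quartile of the mean spot signal of 3039 against 1060 to 1774, and its part in these values was not tested. Before any normalization, the Ago–RNA signal of Malat1 was 1360 in ES and 1889 in ELA, and that of Rmrp was 802 in ES and 2145 in ELA. The unnormalized signal rose for 7 of 9 RNAs, these 2 and Rpph1 among them. For Neat1 it went the other way, from 2822 to 787. For Terc it went from 392 to 363, so that its rise was seen in the normalized signal only.

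**Figure D2:**
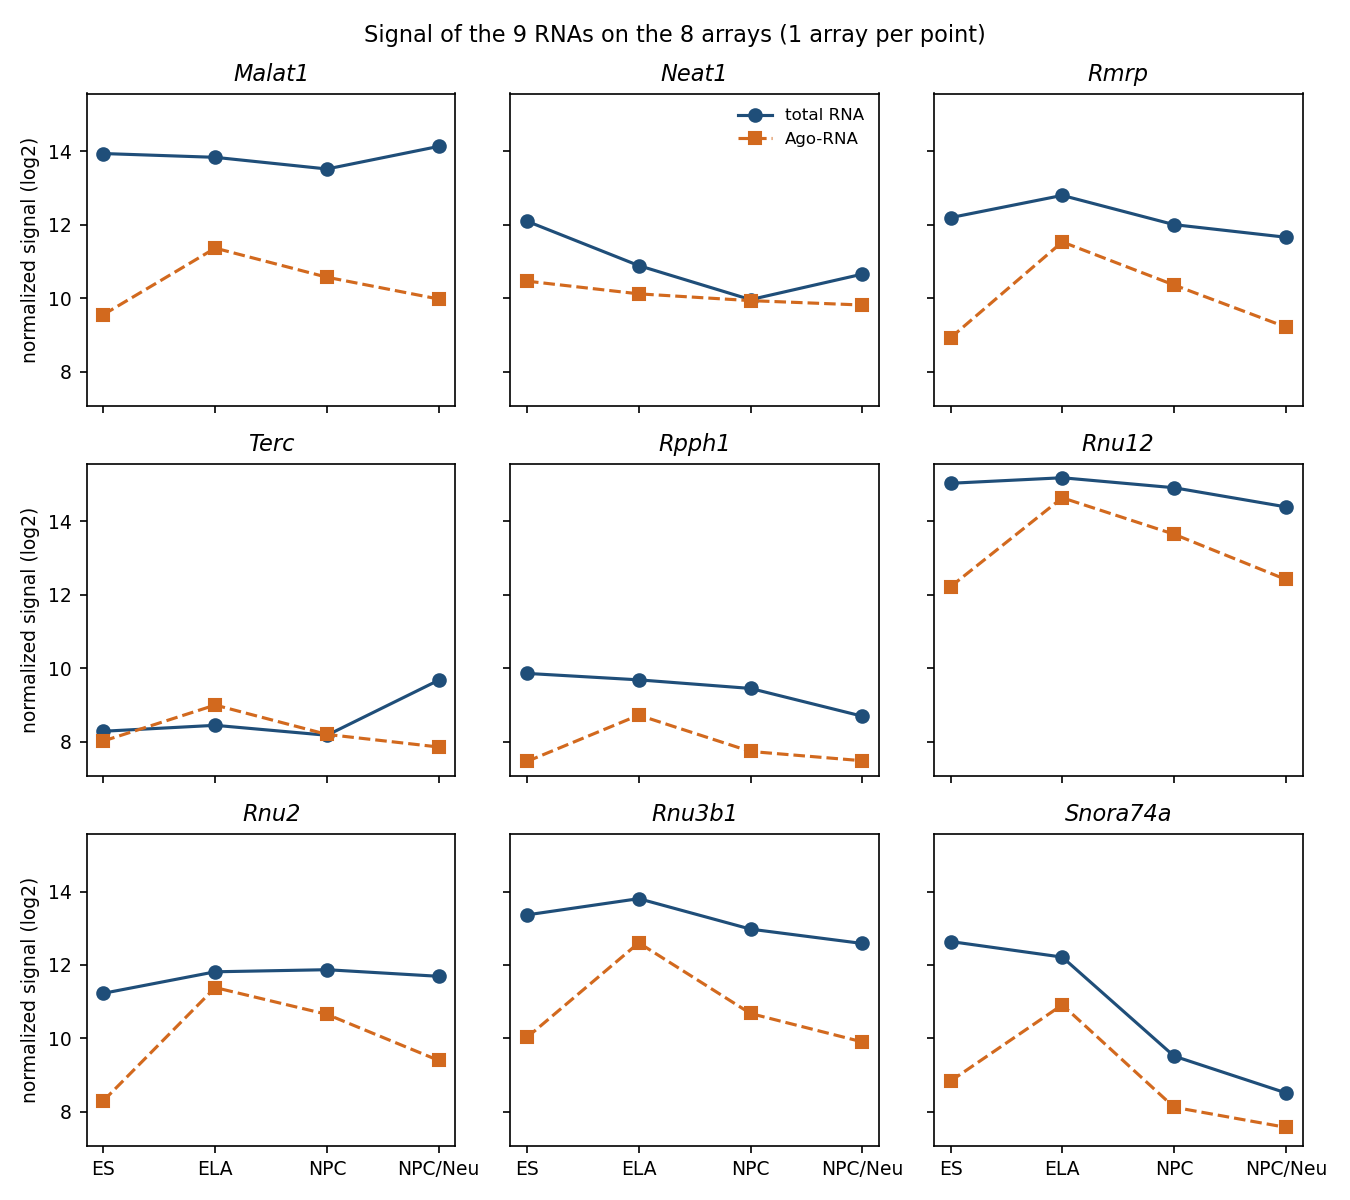
Normalized log2 signal (vertical axis) of the 9 RNAs by stage (horizontal axis), in total RNA (circles, solid lines) and Ago–RNA (squares, dashed lines), with 1 array per point. In all panels but that of Neat1 the dashed line peaks in ELA. Neat1 loses total RNA from ES to NPC instead, and in Terc the lines cross.

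Malat1 is a long RNA of nuclear speckles with a role in alternative splicing and in gene activity. Its named probe lies beyond the end that RNase P leaves on this RNA, as described below. The total RNA signal (log2) of that probe was 13.94 in ES, 13.84 in ELA and 13.52 in NPC, then 14.14 in NPC/Neu. The Ago–RNA signal of the same probe was 9.55 in ES and 11.36 in ELA, followed by 10.57 in NPC and 9.98 in NPC/Neu. By its named probe, the E of Malat1 was the lowest of the set at all 4 stages, at -4.39, -2.47, -2.95 and -4.16. No other RNA of the set lay within 2 SD of these values. This rank did not hold for the 6 sense probes further upstream in the gene, whose mean E was -3.61, -1.22, -2.24 and -3.78. Snora74a (-3.80) was lower than that mean in ES. In ELA Snora74a (-1.30) and Rmrp (-1.27) were lower, and in NPC Rnu3b1 (-2.30) was. Each of these gaps was smaller than the SD over the 6 upstream probes, of 0.29 in ES, 0.40 in ELA and 0.47 in NPC.

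The array carried 10 further sense probes within the annotated Malat1 gene under other names, such as NEAT2, an older name of Malat1. They show where the named probe lies on the RNA. The nascent Malat1 RNA is cut by RNase P, which releases a small tRNA-like RNA and leaves an end that is protected by an A-rich tract folded onto U-rich stretches. The long isoform of Neat1 ends in the same manner. Both ends are printed below in the strand of the RNA, because they share their letters. Capitals mark the 16 bases CTCAGGTTTTGCTTTT, the longest run in common, which occurs 2 times on chromosome 19 counting both strands, and the 11 final bases AAAAAGCAAAA, which are common, with 429 occurrences there.
Malat1, chr19:5795982-5796101, minus: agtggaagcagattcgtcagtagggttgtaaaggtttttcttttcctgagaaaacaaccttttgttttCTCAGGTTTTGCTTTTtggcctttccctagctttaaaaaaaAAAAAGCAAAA
Neat1, chr19:5824708-5824827, minus: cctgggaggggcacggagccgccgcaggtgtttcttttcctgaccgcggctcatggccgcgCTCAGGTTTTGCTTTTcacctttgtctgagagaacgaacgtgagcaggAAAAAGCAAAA

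In the annotation, Malat1 continued for 292 bases beyond these letters, to an end 16 bases after the polyadenylation signal letters AATAAA. The named probe and 4 others lay in this distal stretch, between 89 and 209 bases beyond the shared letters. They therefore read RNA that continues past the end left by RNase P, and not the RNA that ends there. The remaining 6 sense probes lay upstream, 3 in the middle of the RNA and 3 near its 5′ end. The 2 groups of probes gave different accounts of Malat1. In ES cells, E was -4.55 ± 0.10 (SD over 5 probes) in the distal stretch, -3.86 ± 0.10 (3 probes) in the middle and -3.36 ± 0.13 (3 probes) near the 5′ end. In ELA cells it was -2.59 ± 0.12, -1.55 ± 0.29 and -0.90 ± 0.09 in the same order. In NPC it was -3.01 ± 0.12, -2.65 ± 0.08 and -1.82 ± 0.19, and in NPC/Neu -4.24 ± 0.12, -3.88 ± 0.32 and -3.68 ± 0.31. The distal and upstream probes did not overlap in E in ES, ELA or NPC, and in NPC/Neu they did, with the lowest upstream probe at -4.18 and the highest distal probe at -4.11. The probes share the same RNA and arrays and are not replicates of a condition.

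Total RNA also differed by position. From NPC to NPC/Neu the 6 upstream probes rose by 1.09 to 1.24, that is by 2-fold or more, and the 5 distal probes rose by 0.60 to 0.69. Over the whole course from ES to NPC/Neu, the upstream probes rose by 1.04 ± 0.07 and the distal probes by 0.14 ± 0.06. By the probe that carries its name, Malat1 was nearly level in total RNA (0.20), while every upstream probe rose by 0.92 to 1.13. From ELA to NPC the upstream probes rose by 0.09 to 0.14, and the distal probes fell by 0.32 to 0.46. In bulk RNA, a different share of cells and a different amount of RNA per cell cannot be told apart. One of the distal probes had the same 60 bases as the named probe, and the E of these 2 prints differed by 0.20 in ES, 0.06 in ELA and 0.07 in NPC, then 0.05 in NPC/Neu.

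**Figure D3:**
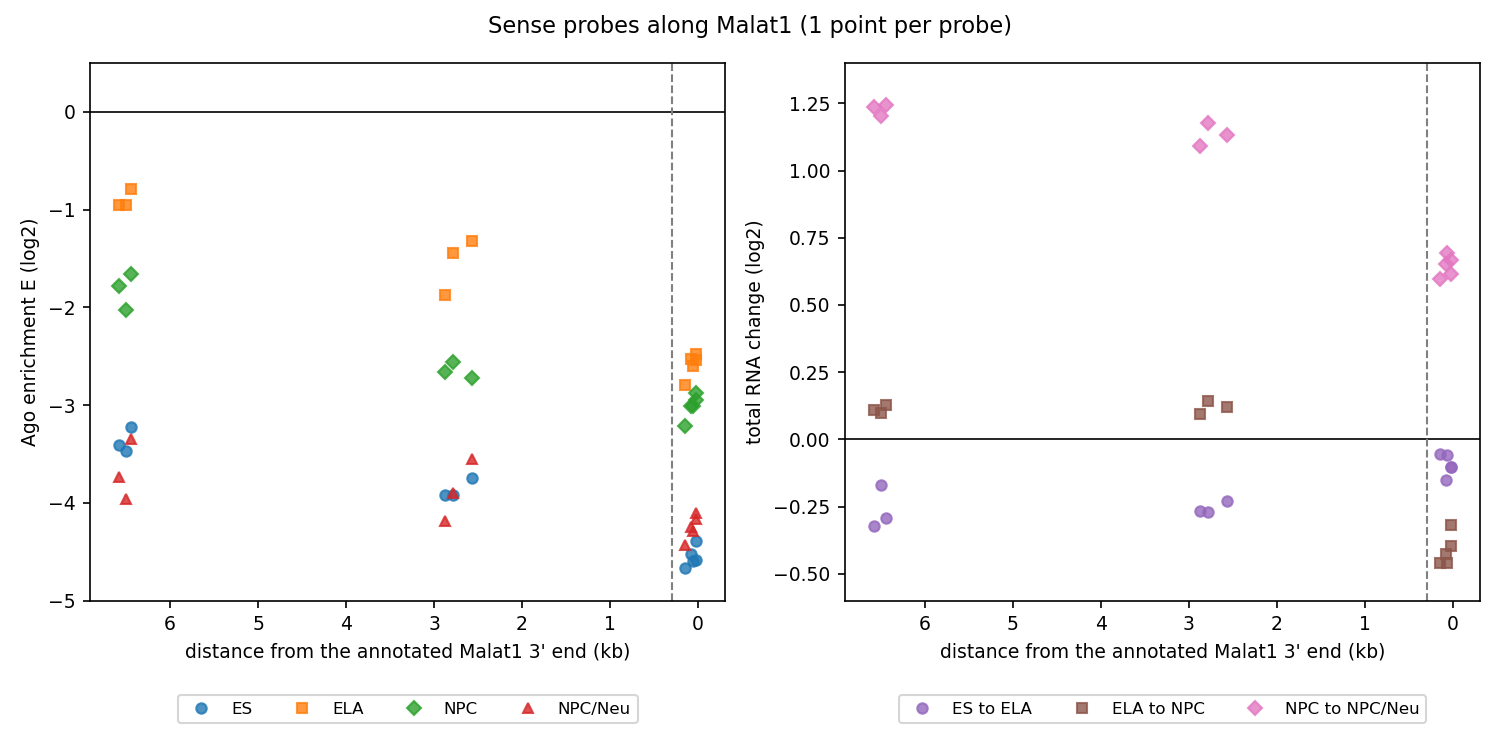
Ago enrichment at each stage (left) and change in total RNA between consecutive stages (right), both in log2, for the 11 sense probes along Malat1, against distance from the annotated 3′ end in kb (axis reversed, so that the RNA reads 5′ to 3′). The dashed line marks the end of the letters shared with Neat1. Distal probes have lower E in ES, ELA and NPC and a smaller rise in total RNA into NPC/Neu than the 6 upstream probes.

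Neat1 is made as a short, polyadenylated RNA and as a long one, which builds the paraspeckle. Its named probe lay 257 bases before the annotated end of the short isoform, in a stretch that both isoforms contain, and the short isoform ended 14 bases after its last AATAAA. Its total RNA signal was 12.10 in ES and 10.89 in ELA, followed by 9.96 in NPC and 10.65 in NPC/Neu. Its Ago–RNA signal fell over a narrower range, at 10.46, 10.12, 9.93 and 9.81 in the same order. From ES to ELA the Ago–RNA signal of the named probe fell by 0.35, and that of the 5 other probes common to both isoforms by 0.50 to 0.88. E was therefore -1.63 in ES, -0.77 in ELA and -0.03 in NPC, then -0.84 in NPC/Neu. In NPC, Neat1 did not differ from 0 by more than 2 spot-to-spot SD (its E was 0.26 with quantile normalization within each RNA type), and 49.4% of the tested probes had a lower E.

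The fall of Neat1 from ES to ELA, by 1.21 in total RNA, was the only change of at least 1 in the set at that transition, where 5.17% of all tested probes fell and 4.9% rose by as much. All 6 probes in the part common to both isoforms fell, by 1.16 to 1.37. 3 more sense probes lay in the part that only the long isoform has. Their total RNA signals lay between 8.03 and 8.87 in ES and between 7.24 and 7.75 in ELA. From there they rose slightly in NPC, by 0.21 to 0.48, where the common probes fell further by 0.72 to 0.99. From NPC to NPC/Neu they rose by 0.43 to 1.93, against 0.33 to 0.69 for the common probes. The widest of these came from 1 probe, which reached 10.04 in NPC/Neu with an E of -2.45, while the other two had an E of -1.15 and -0.69. Only this probe was well above background on all 8 arrays, and the other two were so on 7 and 5.

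**Figure D4:**
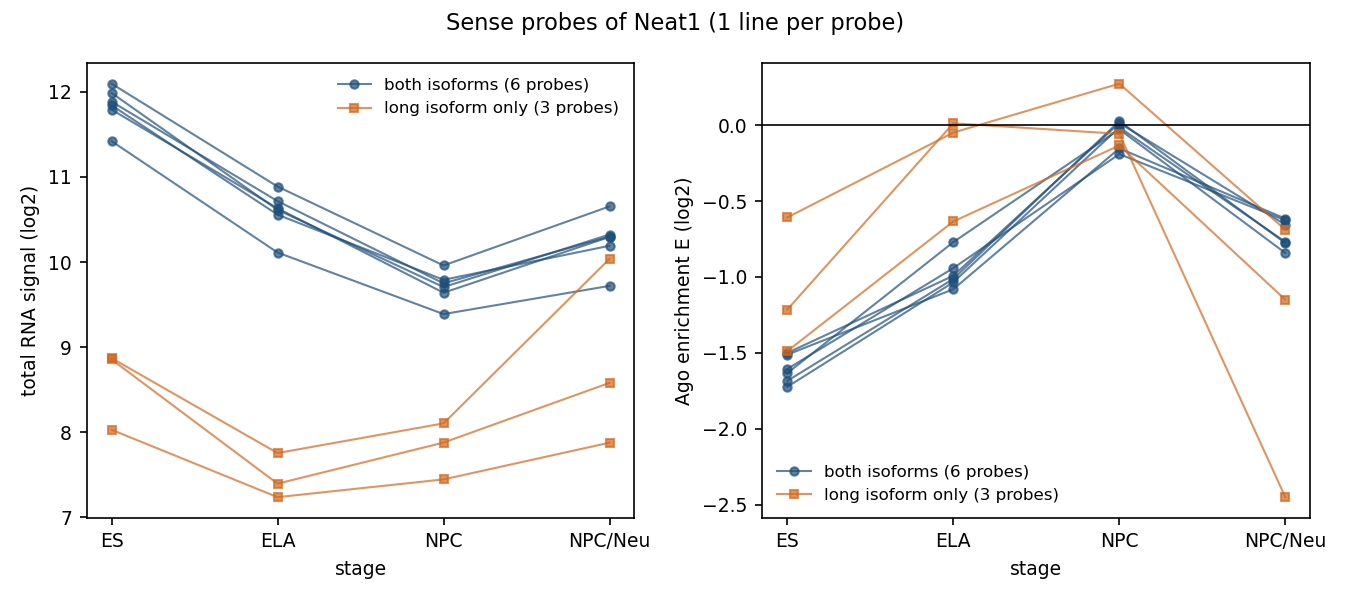
Total RNA signal (left) and Ago enrichment (right), both in log2, of the 9 sense probes of Neat1 by stage, with 1 line per probe. The 6 probes common to both isoforms move together, from an E near -1.6 in ES to near 0 in NPC. The 3 long isoform probes are dimmer and scatter in NPC/Neu, where 1 of them lies at -2.45.

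Rmrp is the RNA of RNase MRP, which cuts ribosomal RNA precursors in the nucleolus. Its total RNA signal was 12.19 in ES and 12.80 in ELA, followed by 12.003 in NPC and 11.66 in NPC/Neu, and its Ago–RNA signal was 8.92, 11.53, 10.36 and 9.21. Its E of -3.28, -1.27, -1.64 and -2.45 thus fell after ELA at each step. Ccdc107, the gene on the other strand, had an E of -1.46, -1.01, -1.45 and -1.73, also highest in ELA but over a narrower range. Rpph1, read on the opposite strand, had total RNA signals of 9.86, 9.68, 9.45 and 8.69 and Ago–RNA signals of 7.46, 8.72, 7.73 and 7.48. Its E was -2.40, -0.96, -1.72 and -1.21.

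The proteins of RNase MRP and RNase P were measured by 10 of 11 names, all of them tested. In ES cells 4 of 10 mRNAs were at E of -1 or lower and 1 was at 1 or higher, with a median of -0.65, where 13.0% and 11.0% of all tested probes were. Pop1, the large shared subunit, had the highest E in ES at 1.65, and Rpp21, a small subunit, the lowest at -1.43. No mRNA of this list was at -1 or lower in ELA, where the median was -0.06.

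Terc, the template RNA of telomerase, behaved differently from the rest. Its total RNA signal was 8.28 in ES, 8.44 in ELA and 8.17 in NPC and then reached 9.67 in NPC/Neu. That rise of 1.502 was the only one of at least 1 in the set at the NPC–NPC/Neu transition, where 5.92% of all tested probes rose by as much. Its Ago–RNA signal was 8.02, 8.996, 8.20 and 7.85. E was -0.27 in ES, 0.55 in ELA and 0.02 in NPC, then -1.82 in NPC/Neu, so Terc, in ELA, was the only RNA of the set with more signal in Ago–RNA than in total RNA beyond 2 spot-to-spot SD. Its signals lie near the dim end of the scale, where the added offset of 50 shrinks ratios. The mRNAs of telomerase and H/ACA proteins had a median E of 0.67 in ES, with 1 of 8 at -1 or lower and 2 at 1 or higher (13.0% and 11.0% of all tested probes). Dkc1, the pseudouridine synthase of these particles, was highest at 1.16, and Nop10, its small partner, was lowest at -1.42. In total RNA, 4 of these 8 mRNAs fell by at least 1 from ELA to NPC, where 10.1% of all tested probes fell and 11.1% rose by as much.

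Rnu2 and Rnu12 are the RNAs that pair with the intron branch site in the major and the minor spliceosome. The total RNA signal of Rnu2 was 11.23, 11.81, 11.87 and 11.69 from ES to NPC/Neu, and its Ago–RNA signal was 8.30, 11.38, 10.65 and 9.40. Its E was -2.93, -0.43, -1.22 and -2.29. The total RNA signal of Rnu12 was 15.04, 15.19, 14.92 and 14.40, and its Ago–RNA signal was 12.22, 14.65, 13.65 and 12.42. Its E was -2.82, -0.55, -1.27 and -1.98. Neither changed by 1 or more in total RNA at any transition. The Rnu2 probe also lies within Rdm1, whose own probe had an E of -1.34 in ES and -0.43 in ELA, followed by -0.60 in NPC and -0.96 in NPC/Neu. The mRNAs of U2 and U12 snRNP proteins had a median E of -0.37 in ES, with 3 of 18 at -1 or lower and 3 at 1 or higher, shares near the 13.0% and 11.0% of all tested probes. Sf3b3, a core subunit of the branch site complex, was highest at 1.99, and Snrnp25, of the minor spliceosome, was lowest at -1.41.

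Rnu3b1 is a U3 RNA, which guides early cuts in ribosomal RNA, and Snora74a is a box H/ACA RNA. The total RNA signal of Rnu3b1 was 13.36, 13.81, 12.98 and 12.58 from ES to NPC/Neu, its Ago–RNA signal was 10.02, 12.60, 10.68 and 9.90, and its E was -3.34, -1.20, -2.30 and -2.68. Tex14, the gene around it, had an E of 0.75, 0.35, 0.18 and 0.40. From ES to ELA the total RNA of Tex14 fell by 2.73, and that of Rnu3b1 rose by 0.44. The part of Tex14 RNA in the Rnu3b1 signal was not tested. Snora74a was the RNA that changed most in total RNA. Its signal was 12.64 in ES, 12.21 in ELA and 9.51 in NPC, then 8.51 in NPC/Neu, 17.4-fold lower at the end than in ES. It fell by 2.70 from ELA to NPC and fell by 1.00 from NPC to NPC/Neu, and no other RNA of the set fell by 1 or more at these transitions. Of all tested probes, 10.1% fell by 1 or more from ELA to NPC and 4.17% from NPC to NPC/Neu. The second fall of Snora74a lay at the cut and was smaller than 1 with quantile normalization within each RNA type. Its Ago–RNA signal was 8.83, 10.91, 8.12 and 7.57, and its E was -3.80, -1.30, -1.39 and -0.94, highest where the least RNA was left. Both signals came near the dim end of the scale in NPC/Neu, where scaling the scanner-processed signal by its 75th percentile gave an E of -1.99.

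The snoRNA host genes, long RNAs whose introns release snoRNAs, were mostly low in Ago–RNA as well. 8 of 12 names had a probe above background in ES total RNA. Of these, 7 were at E of -1 or lower in ES, with a median of -2.44, then 3 (-0.74), 4 (-0.99) and 5 (-1.41) at the later stages. The shares of all tested probes were 13.0%, 5.01%, 7.64% and 14.3%. Gas5 was lowest in ES at -3.32 and Snhg3 highest at -0.85. Snhg3 was above 0 in ELA, at 0.27, and Snhg10 was at 1.01 in NPC and 0.31 in NPC/Neu. The C/D and U3 snoRNP protein mRNAs were close to even, with a median of -0.24 in ES and 0 of 8 at -1 or lower (13.0% of all tested probes); Fbl, the methylase fibrillarin, was at 0.36 and Nhp2l1 at -0.98. Among 4 further probes for small nuclear or nucleolar RNAs, Rnu1b6, a U1 RNA, had the lowest E in ES at -3.02 and was at 0.01, -1.23 and -2.63 at the later stages. Rnu7, of the histone mRNA processing particle, was the highest of these at -0.33 in ES.

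Most RNAs on a list of other long noncoding RNAs, not all of them nuclear, were low in Ago–RNA as well. 4 of 6 that were tested had an E of -1 or lower in ES, against 13.0% of all tested probes, with a median of -1.52. At the later stages 3, 3 and 4 of 5 were at -1 or lower, against 5.01%, 7.64% and 14.3%. Mirg, from an imprinted cluster, was lowest at -3.21, and H19, an imprinted RNA that was dim here, was highest at -0.02. H19 then had more signal in Ago–RNA than in total RNA, with an E of 1.43, 2.51 and 0.71 from ELA to NPC/Neu. The mRNAs of paraspeckle proteins had a median E of 0.58 in ES, opposite in sign to Neat1 there. In ES 1 of 12 was at -1 or lower and 2 were at 1 or higher (13.0% and 11.0% of all tested probes). Their median was -0.21 in ELA, the same sign as Neat1, and 0.37 in NPC/Neu, opposite in sign to Neat1 (-0.84). In NPC it was -0.05, where Neat1 did not differ from 0 by more than 2 spot-to-spot SD. Nudt21, a subunit of the cleavage factor for mRNA 3′ ends, was lowest in ES at -1.49.

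E also went with RNA length among mRNAs, and the small RNAs of the set are 151 to 423 bases long in the annotation. In ES cells the median E of mRNAs was -0.69 for 164 genes with a longest transcript under 500 bases and 0.70 for 4363 genes of 4000 bases or more. In ELA these medians were -0.13 and 0.22. Of the short mRNAs, 39.6% were at -1 or lower in ES and 6.04% in ELA. Malat1 has 6982 bases in the annotation. In ES its E was -4.39 by the named probe and -3.61 on average over the 6 upstream probes. The part of length in the values of the set was not tested.

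Over the 8 arrays, the names whose log2 signal was most like that of Malat1 among 19764 compared were NEAT2 (Pearson's r of 1.00), an unnamed region with a probe in the same gene (1.00) and a cDNA without a gene symbol on chromosome 16 (0.999). For Neat1 the name NEAT1 came first (0.990), followed by 2 unnamed transcribed regions (0.984 and 0.983). For Rmrp the leading names were 2 unnamed regions (0.998 and 0.994) and a predicted transcript (0.995). These correlations share the 8 arrays and the pairing of Ago–RNA with total RNA.

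The stage labels were checked against stage markers in total RNA. All 7 ES markers were highest in ES, among them Zfp42 at 15.97, and Fgf5 was highest in ELA at 14.78. Of 4 NPC markers, Hes5 was highest in NPC, at 16.28, and Sox1, Pax6 and Nes were highest in NPC/Neu. All 4 neuronal markers were highest in NPC/Neu, with Tubb3 at 17.01. Eomes, on the list for ELA, was highest in NPC/Neu at 12.69. Of the markers of other cell types, Foxa2 rose from 7.01 in ES to 11.24 in NPC/Neu, T from 7.19 to 9.31 and Olig2 from 6.48 to 9.31. Other markers on these lists did not rise in this way. Sox17 went from 7.04 to 7.30 and Gfap from 7.82 to 7.85, and Hand1 fell from 7.80 to 6.61. Afp, Mixl1, Myod1 and Hbb-b1 were not well above background at any stage. The part of cells with the rising markers in the total RNA changes above was not tested.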

How the data were processed

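The authors deposited the spot intensity that Feature Extraction wrote for each array, version 10.7.3.1 per the file headers and 9.1 per the labels: mean and local background intensity and a processed intensity, not normalized between arrays. Arrays were SurePrint G3 Mouse, annotated on mm9, and lay on the same slide. The labels give 50 ng of labeled RNA and the methods 200 ng.

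Background was removed from the mean intensity by normexp with an offset of 50 (limma 3.58.1, R 4.3.3), irregular spots (125 to 523 per array) were left out, log2 values of gene spots were quantile normalized over 8 arrays, and repeated probes were averaged. With 1 array per condition, the number of arrays limits the precision, and values were called by size only (1 on the log2 scale). E was tested for probes well above background in total RNA at the stage, and total RNA changes for probes so at either stage. Between 53.45% and 61.22% of spots were well above background, and none was saturated. Further steps used pandas 2.3.3 and numpy 2.4.6 in Python 3.11.15, and probes were placed on mm9 and GENCODE. The procedure was tested on simulated data for ES Ago–RNA against ES total RNA with 55681 probes. Of 100 probes lowered by a known amount, 100 were called, and of 17957 unchanged bright probes, 0 were. The lowered probes were bright too and were lowered by more than the cut of 1, with little added noise. This outcome therefore checks the steps only and gives no error rate for the real arrays or for dimmer probes.

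The members and gene lists were chosen with earlier results of these data known. Named genes are every member, the highest and lowest E in ES of each list and of other small RNAs, the 3 most similar names for Malat1, Neat1 and Rmrp, overlapping genes, and markers, of which 1 gene is not reported here. Alternatives were an offset of 16 or 0, scanner-processed intensity under quantile or 75th percentile scaling, quantile normalization within each RNA type, a filter on dim probes and the brightest probe. After the data were seen, 2 were added: all sense probes of Malat1 and Neat1, and leaving out Rpph1.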

Additional observations from a re-analysis of the deposited data

Results flagged for a closer look

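Terc had an E of opposite sign at different stages, each beyond 2 spot-to-spot SD: 0.55 in ELA against -0.27 in ES and -1.82 in NPC/Neu. The difference was not tested, since each stage has 1 pair of arrays. Under the alternatives, E of Terc ranged from -0.90 to -0.27 in ES, from 0.40 to 0.63 in ELA and from -2.83 to -1.73 in NPC/Neu. The negative value in ES was seen after normalization only. Before it, the signal of Terc in ES was 392 in Ago–RNA and 284 in total RNA.

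Of 3 probes for the strand opposite to Malat1, which belong to no comparison above, 1 was well above background on all 8 arrays. Its log2 total RNA signal was 11.42 in ES, and its E was 0.09, -0.35, -0.40 and -0.54 from ES to NPC/Neu, above -0.79, the highest E of the 11 sense probes at any stage. The other two were well above background on 7 arrays each. Their E overlapped that of the sense probes at some stages, at -2.14, -1.43, -1.04 and -1.98 for one and at -0.02, -1.51, -1.15 and -1.71 for the other.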

How the results depend on the processing

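No paired analysis was possible because each condition has 1 array. Of 640 values of single members under the alternatives, 488 moved by less than 1 spot-to-spot SD and 151 moved by more. Many of the 488 could not have moved. The filter on dim probes, the brightest probe and leaving out Rpph1 cannot change the value of an RNA with 1 bright probe. Using all sense probes can change only Malat1 and Neat1. In addition, 1 value that lay beyond 2 SD of 0 changed sign: E of Rnu2 in ELA was 0.027 (-0.43 otherwise) with quantile normalization within each RNA type. Of 4 values within 2 SD of 0 that changed sign, 2 ended beyond it: E of Neat1 in NPC was 0.26 within each RNA type, and E of Terc in NPC was -0.36 with 75th percentile scaling. The median E of all tested probes moved by over 0.1 within each RNA type, to 0.09, 0.14, 0.12 and 0.11 from ES to NPC/Neu, and with 75th percentile scaling, to -0.39, -0.21, -0.23 and -0.29.

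The median E of the 9 RNAs in ES was -3.08 and -3.15 with offsets of 16 and 0, -3.41 with quantile normalized processed signal, -3.71 with 75th percentile scaling, -2.70 with quantile normalization within each RNA type, and -3.10 without Rpph1. In ELA it was -1.13 with quantile normalized processed signal, -1.23 with 75th percentile scaling and -0.74 within each RNA type. Within each RNA type, 1 of 9 rather than 4 was at -1 or lower in ELA (4.53% of all tested probes). With offsets of 16 and 0 and with the 2 processed signals, 5 of 9 were. The shares of all tested probes there were 7.01%, 7.96%, 10.3% and 13.0%. In NPC the median was -1.51 and -1.58 with offsets of 16 and 0, -1.68 and -1.64 with the 2 processed signals, and -1.23 within each RNA type. In NPC/Neu it was -2.09 with offset 0, -2.31 and -2.55 with the 2 processed signals, -1.73 within each RNA type and -2.14 without Rpph1. The cause was not tested.

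The median total RNA change was -0.0056 from ES to ELA (0.15 otherwise) and -0.65 from ELA to NPC (-0.32 otherwise) with 75th percentile scaling, where 2 RNAs rather than 1 fell by at least 1 at the latter, and -0.56 from ELA to NPC without Rpph1. Within each RNA type, 0 rather than 1 fell by at least 1 from NPC to NPC/Neu. The filter on dim probes and the brightest probe changed no value, since each RNA has 1 probe, bright on all arrays. The offset compresses ratios of dim probes, which bears most on Terc, Rpph1 and Snora74a.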
